A study of Sus scrofa with 8 samples.

Results

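The insulin receptor to S6 kinase axis is represented here by 4 genes, INSR, IRS1, MTOR and RPS6KB1, taken by their symbol from 4 lists of m6A peaks in pig muscle. They are 4 of the 5650 gene identifiers with a peak in any list. All 4 symbols were found in both Jinhua lists and 3 in each Landrace list, where RPS6KB1 had no row. The animals were 2 Jinhua males, of a Chinese breed whose muscle holds more fat, and 2 Landrace males, of a Danish breed, all aged 180 days. From each animal 1 library of mRNA fragments precipitated with an m6A antibody (IP) and 1 input library were sequenced, 8 libraries in all, and 1 peak list per animal was deposited. No genotype, treatment or diet was labelled, and breed is the only labelled contrast, so farm, litter or other origin cannot be told apart from breed.

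Insulin binds INSR, a receptor tyrosine kinase of the cell surface, which phosphorylates the docking protein IRS1. IRS1 recruits phosphoinositide 3-kinase, whose lipid product activates AKT, and AKT relieves the brake that the TSC complex places on RHEB. RHEB then activates the kinase MTOR in its complex with RPTOR, and MTOR phosphorylates the S6 kinase RPS6KB1, which acts on ribosomal protein S6 and promotes protein synthesis and muscle growth. N6-methyladenosine (m6A) is a modification of adenosine in mRNA, known to be frequent around stop codons and in long exons, that reader proteins bind to alter splicing, translation or decay.

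Neither reads nor enrichment nor p-values are listed per peak, and library depth is unknown. The number of peaks was 6433 in Jinhua 1, 7733 in Jinhua 2, 6471 in Landrace 1 and 6176 in Landrace 2. A gene with 1 or more listed peaks is called in that animal, and in bulk muscle an absent call cannot tell missing methylation from fewer cells expressing the gene or less RNA per cell. Of 12 skeletal muscle markers 8 carried a peak, each in all 4 animals, among them RYR1 and MYH7. Of 6 adipocyte markers LIPE and CIDEC did, also in all 4, and of 4 endothelial markers 3 did in every animal. Of 5 fibroblast markers 3 and 4 carried a peak in Jinhua and 3 and 2 in Landrace, and of 4 macrophage markers 2 and 2 in Jinhua and 3 and 2 in Landrace. The markers without a peak, such as MB and ADIPOQ, cannot be read as not expressed. With 2 animals per breed, the smallest two-sided p of an exact permutation test is 0.333, so no difference between the breeds can reach a conventional threshold.

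The upstream members carried peaks in every animal, and the kinase at the end of the axis carried one in the Jinhua animals alone. INSR, IRS1 and MTOR were called in all 4 lists, as were 43.8% of the 5650 identifiers. That share was not matched for peak number. Over the 4 animals INSR, IRS1 and MTOR had 12, 13 and 14 peaks, against 2 for RPS6KB1. RPS6KB1 was called in Jinhua alone, meaning both Jinhua lists and no Landrace list, a pattern held by 5.15% of identifiers, while the opposite pattern was held by 2.42% and by no member. Together the members had 41 peaks, 39 of them with a position. Of the 36 with an annotated part, 29 (80.6%) lay in coding sequence, 7 (19.4%) in a 3' UTR and 0 in a 5' UTR. Over all genes 70.4%, 22.1% and 6.80% of peaks with an annotated part did. An INSR peak from base 1 of its model is listed as coding, and how much 5' UTR the models of the members hold is not given. The median width of a member's peak was 163 bases, against 157 bases over all peaks.

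**Figure D1:**
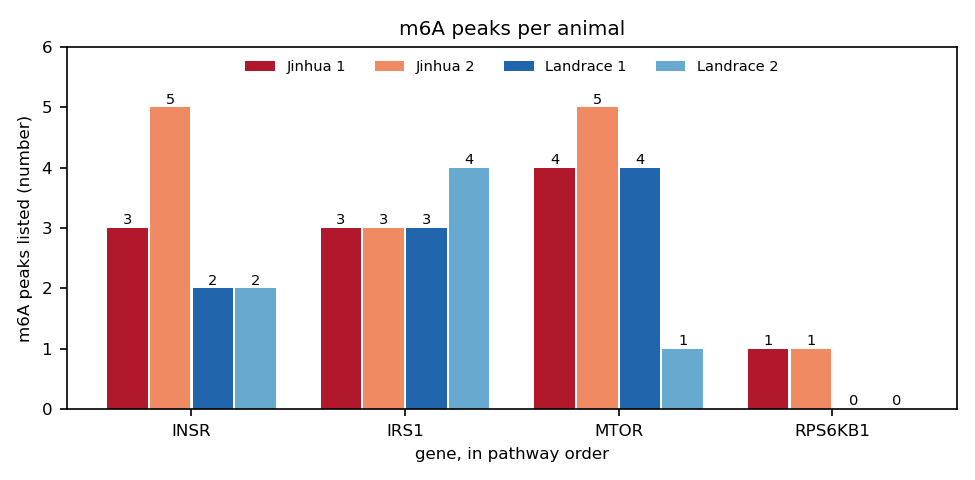
Number of m6A peaks listed for each gene (bars, 1 per animal, Jinhua left of Landrace), with the genes in pathway order on the x axis. INSR stood at 3 and 5 in Jinhua and at 2 and 2 in Landrace, and RPS6KB1 at 1 and 1 in Jinhua and 0 and 0 in Landrace.

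INSR, the receptor, had more peaks in both Jinhua animals than in either Landrace animal. On identifier ENSSSCG00000013564 and transcript ENSSSCT00000034530 Jinhua 1 had 3 peaks and Jinhua 2 had 5, against 2 in Landrace 1 and 2 in Landrace 2. Jinhua averaged 4 ± 1.41 peaks and Landrace 2 ± 0 (SD over 2 animals per breed), a difference of 2 peaks with an exact two-sided permutation p of 0.333. The groups did not overlap. Among the 2474 genes called in all 4 animals, both Jinhua numbers lay above both Landrace numbers in 7.96% and below them in 4.77%. The size of the difference rested on Jinhua 2, without which it was 1 peak, and it was 3 without Jinhua 1.

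The peaks with positions formed 5 regions, a region being the peaks of all animals that overlap or adjoin on the transcript. Positions are bases of the transcript model, counted from base 1 at its 5' end. The single region common to all 4 animals lay in coding sequence. Jinhua 1 had it at bases 1824 to 1995 and Jinhua 2 at 1821 to 1992, against 1839 to 1994 in each of Landrace 1 and Landrace 2. A second coding region was listed for the Jinhua animals alone, with peaks at 1061 to 1220 in Jinhua 1 and 1001 to 1165 in Jinhua 2 that shared 65.6% of the shorter one. Every INSR peak of the Landrace animals has a position, so no unplaced Landrace peak could fall there. Of the 9414 regions in genes with at most 4 peaks in every list, 5.59% were called in Jinhua alone and 3.38% in Landrace alone.

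The INSR 3' UTR peak was listed in 3 animals. It covered bases 3650 to 3836 in Jinhua 1, against 3710 to 3861 in Landrace 1 and 3701 to 3800 in Landrace 2. Jinhua 2 showed no peak there among the 4 positions its list gives, and its other peak has no position, so a call there cannot be told from none. Jinhua 2 alone had peaks at bases 1 to 121, in coding sequence, and at 320 to 481, whose part is not given.

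A second identifier bears the same gene name. ENSSSCG00000013566 has no symbol in the lists and therefore is not a member, but the gene name table pairs it with INSR, and the RefSeq table of Sscrofa11.1 holds a single INSR gene. Its peak numbers were 1 and 1 in Jinhua, against 0 and 0 in Landrace. On transcript ENSSSCT00000014817 Jinhua 1 had bases 391 to 500 and Jinhua 2 bases 461 to 660, both in coding sequence, with 40 bases in common. The Jinhua-only pattern therefore holds for this identifier and not for the one the lists call INSR. Summed over both identifiers INSR differed by 3 peaks between the breed means (exact permutation p = 0.333), and how both models relate on the chromosome was not analysed here.

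IRS1, the docking protein that links the receptor to phosphoinositide 3-kinase, had the steadiest pattern. On ENSSSCG00000025729, transcript ENSSSCT00000023756, Jinhua 1 had 3 peaks and Jinhua 2 had 3, against 3 in Landrace 1 and 4 in Landrace 2. Jinhua averaged 3 ± 0 peaks and Landrace 3.5 ± 0.707 (SD over 2 animals per breed), ranges that met at 3, with an exact permutation p of 1. All 13 peaks had a position and lay in coding sequence, in 3 regions, each called in all 4 animals. Of the same 9414 regions, 27.1% were called in all 4 animals.

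The first IRS1 region began within 6 bases in the 4 animals. Jinhua 1 had bases 307 to 518 and Jinhua 2 had 304 to 530, against 303 to 473 for Landrace 1 and 301 to 471 for Landrace 2. In the second, Jinhua 1 had 2741 to 2910 and Jinhua 2 had 2739 to 2908, against 2758 to 2922 for Landrace 1 and 2764 to 2926 for Landrace 2. The peaks differed most in the third. There Jinhua 1 had 3031 to 3160 and Jinhua 2 had 2991 to 3350, against 3291 to 3515 for Landrace 1 and both 3071 to 3170 and 3221 to 3470 for Landrace 2. No base of the third region was common to all 5 peaks, and the wide peak of Jinhua 2, with 360 bases the widest of any member, joined the others. Without Jinhua 2 it split into 1 part shared by Jinhua 1 and Landrace 2 and 1 part called in both Landrace animals.

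**Figure D2:**
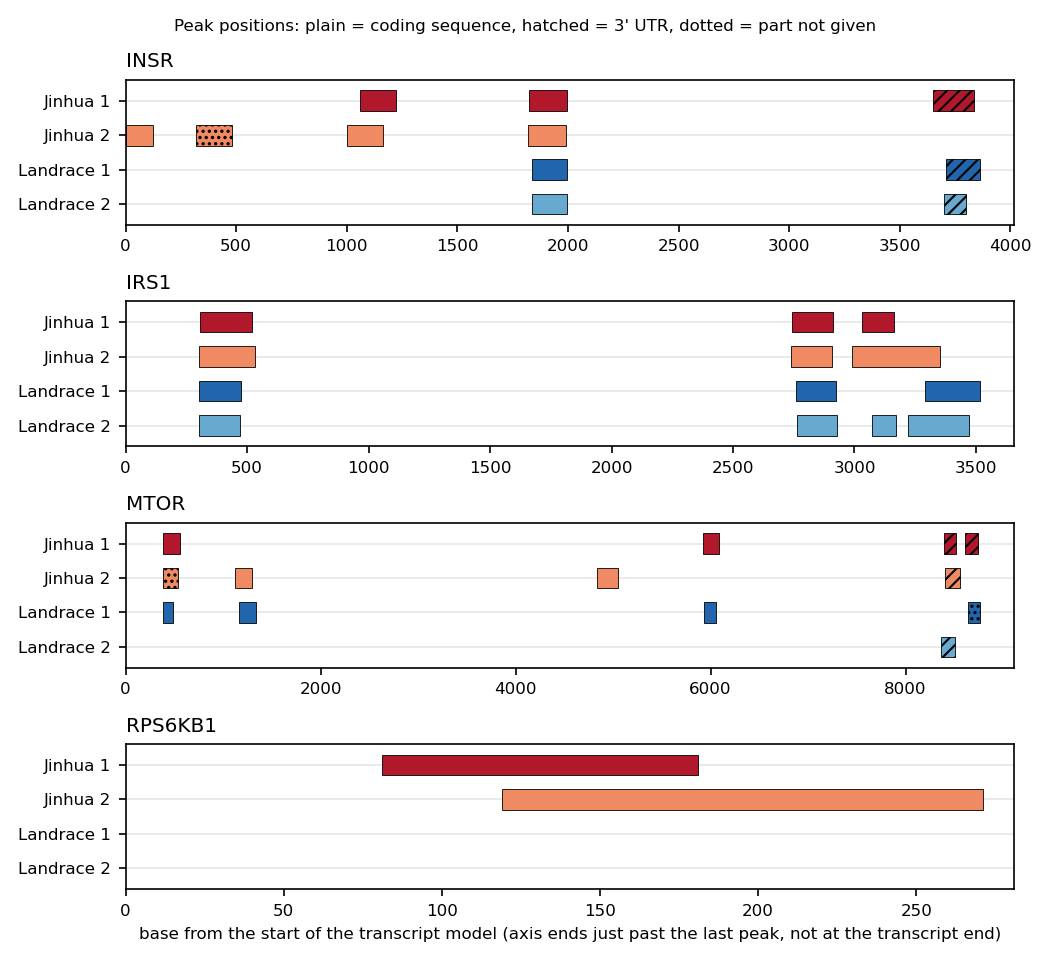
Positions of the listed peaks of each gene (bars, 1 row per animal, Jinhua above Landrace), in bases from the start of the transcript model on the x axis. INSR held a region at bases 1001 to 1220 in the Jinhua rows alone, the 3 IRS1 regions stood in every row, and MTOR had 1 peak in Landrace 2.

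MTOR, the kinase that gathers insulin, amino acid and energy signals, had the most peaks of the 4 genes and the widest spread. On ENSSSCG00000003413, transcript ENSSSCT00000003786, it had 4 in Jinhua 1 and 5 in Jinhua 2, against 4 in Landrace 1 and 1 in Landrace 2. Jinhua averaged 4.5 ± 0.707 peaks and Landrace 2.5 ± 2.12 (SD over 2 animals per breed), ranges that met at 4, with an exact two-sided permutation p of 0.667. The difference of 2 peaks rested on Landrace 2 and was 0.5 without it, against 3.5 without Landrace 1. It was 1 with peaks joined across gaps of up to 100 bases. Scaled to 10000 peaks per list, the numbers were 6.22 and 6.47 in Jinhua and 6.18 and 1.62 in Landrace (exact permutation p = 0.333). Jinhua 1 and Landrace 1, with 4 peaks each, were parted there only by the length of their lists. With only peaks of 150 bases or more the breeds did not overlap (exact permutation p = 0.333). Jinhua 1 and Landrace 1 both lost peaks to that limit, and the single Landrace 2 peak, of exactly 150 bases, met it. A Jinhua 2 peak without a position has no known width. The share of all genes whose breeds did not overlap under that limit is not given here, so this separation has no background. With 14 peaks over the 4 animals MTOR stood among the 214 identifiers with as many or more. These numbers were not scaled by transcript length, and the last listed peak ended at base 8760 in MTOR, 3861 in INSR and 3515 in IRS1.

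The MTOR peaks formed 6 regions, none called in all 4 animals and none that parted the breeds. The most 5' region, coding where its part is given, covered bases 382 to 558 in Jinhua 1 and 379 to 541 in Jinhua 2, against 385 to 490 in Landrace 1. The next, also coding, was at 1127 to 1300 in Jinhua 2 and 1161 to 1333 in Landrace 1. A peak at 4835 to 5049 stood in Jinhua 2 alone. Another coding region was at 5921 to 6083 in Jinhua 1 and 5931 to 6058 in Landrace 1. Landrace 1 thus had 3 of these 4 regions, each with at least 1 Jinhua animal, and Landrace 2 had no coding peak.

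In the MTOR 3' UTR every animal had a peak within 400 bases, but not the same one. A proximal region covered bases 8395 to 8520 in Jinhua 1 and 8401 to 8560 in Jinhua 2, against 8361 to 8510 in Landrace 2. A distal region covered 8611 to 8740 in Jinhua 1 and 8641 to 8760 in Landrace 1, where the list gives no part. Joined across gaps of up to 100 bases, both became 1 region called in all 4 animals. One MTOR peak of Jinhua 2 has no position and may lie in any of these regions or outside them.

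RPS6KB1, the S6 kinase at the end of the axis, had 1 peak in Jinhua 1 and 1 in Jinhua 2, against 0 in Landrace 1 and 0 in Landrace 2. The difference of 1 peak between the means had an exact permutation p of 0.333 (two-sided, n = 2 each). On ENSSSCG00000017670, transcript ENSSSCT00000019234, the peak covered bases 81 to 180 in Jinhua 1, and in Jinhua 2 the 152 bases that end at base 270. Both lay in coding sequence near the start of the model and shared 62 bases. The Jinhua 1 peak was 100 bases wide, the smallest width in any list and that of 8.63% of the peaks in its own list. Counting only peaks of 150 bases or more, RPS6KB1 kept its peak in Jinhua 2 alone. The same numbers of peaks, 1, 1, 0 and 0, were found in 208 other identifiers (3.68%).

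The second S6 kinase, RPS6KB2, did not share that pattern. It had 2 peaks in every animal of both breeds. A region at bases 1322 to 1713 of ENSSSCT00000014113, over coding sequence and 3' UTR, was called in all 4. Each animal had a 3' UTR peak in it, and Jinhua 2, Landrace 1 and Landrace 2 also had a coding peak there. Jinhua 1 alone had a coding peak that ends at base 281.

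By numbers of peaks over the 4 animals, the gene most like INSR was the sialyltransferase gene ST3GAL1, with the same 3 and 5 in Jinhua and 2 and 2 in Landrace. For IRS1 there were 13 identical genes, of which AKT1S1, an inhibitory subunit of the MTOR complex and an AKT substrate, belongs to the pathway. The others closest in covered bases were LRRC41, SSRP1, FYCO1 and COG1. No gene matched MTOR exactly, and PRRC2C, with 3 and 5 in Jinhua and 4 and 1 in Landrace, differed by 1 peak.

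In regions common to the 4 animals, the edges of the peaks could also be compared. In the 3 regions with exactly 1 peak in each animal, the shared INSR region and the first and second IRS1 regions, the starts of the Jinhua and Landrace peaks did not overlap. The mean start in Jinhua minus that in Landrace was -16.5 bases in INSR, 3.5 bases in the first IRS1 region and -21 bases in the second. The Jinhua peaks were the wider in all 3, with mean widths of 172 against 156 bases in INSR, 219.5 against 171 in the first IRS1 region and 170 against 164 in the second. Over 2123 such regions in genes with complete positions, which leave INSR out, the breeds did not overlap in start in 37.8%, in end in 43.9% and in width in 38.7%. Of those apart in width, the Jinhua peaks were wider in 559 and the Landrace peaks in 262, so wider Jinhua peaks were the more common direction over all genes. Of those apart in start, the Jinhua peaks began later in 548 and the Landrace peaks in 254. The later Landrace starts in INSR and the second IRS1 region were thus the less common direction. Of those apart in end, the Jinhua peaks ended later in 763, as in the first IRS1 region, and the Landrace peaks in 170, as in the second. The median distance between the first and the last start was 22 bases, against 18 in INSR and 6 and 25 in IRS1. This look at edges was added after the values had been seen, and separate edges were common over all genes.

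**Figure D3:**
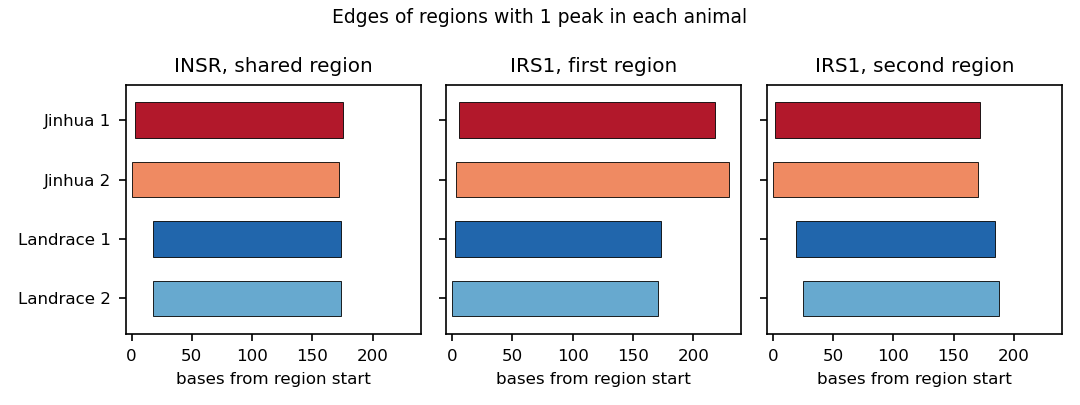
Extent of the 4 peaks in each region with exactly 1 peak per animal (bars, Jinhua above Landrace), in bases from the region's first base on the x axis. The Landrace peaks started later in INSR and in the second IRS1 region, and the Jinhua peaks ended later in the first IRS1 region.

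Of 123 listed genes of the pathway, 61 were called in at least 1 animal under their own symbol, 51 in Jinhua 1 and 53 in Jinhua 2, against 48 in Landrace 1 and 43 in Landrace 2. In all 4 animals 34 were called (55.7%, against 43.8% over all identifiers). In Jinhua alone 2 were called, RPS6KB1 among them (3.28%, against 5.15%), and 0 genes had the opposite pattern (against 2.42%). With Landrace 1 left out the 2 became 10, by adding the 8 called in every animal but Landrace 2 (13.1%, against 5.31% of all identifiers). Of the 34 genes called in all 4, 7 (20.6%) had both Jinhua numbers above both Landrace numbers and 0 the reverse, where 7.96% and 4.77% of all such genes did. The median difference in peak number was 0.5 in the list and 0 over all identifiers. The Jinhua mean was the higher in 33 of the 61 (54.1%, against 44.7%). These shares describe the list and were not tested.

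Among ligands and receptors, the mannose 6-phosphate receptor IGF2R had 1 and 5 peaks in Jinhua and 4 and 3 in Landrace. Of 10 called adaptors and receptor regulators 5 were called in all 4 animals (50%, against 43.8% of all identifiers). They included GRB10, an inhibitor of the insulin receptor, with 2 and 4 in Jinhua and 2 and 3 in Landrace, and PTPN1, a phosphatase acting on the receptor, with 2 and 1 in Jinhua and 3 and 1 in Landrace. IRS2 was in no list. PIK3R1, the main regulatory subunit of phosphoinositide 3-kinase, had 3 and 2 in Jinhua and 2 and 3 in Landrace. INPPL1, a phosphatase of its lipid product, stood at 4 and 4 in Jinhua and 2 and 2 in Landrace. Its coding region at bases 771 to 1060 of ENSSSCT00000016162 was listed for the Jinhua animals alone, as were 5.59% of all 9414 regions. AKT2, the AKT form most tied to glucose uptake, had 3 peaks in each animal of both breeds, and AKT1 was in no list.

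Between AKT and MTOR and among the nutrient and energy inputs, several genes were missing from Landrace 2. RHEB, the small GTPase that activates MTOR, had 2 and 2 peaks in Jinhua and 1 and 0 in Landrace. Its coding region from base 1 of ENSSSCT00000017895 was listed for the Jinhua animals alone, in each as a peak of 100 bases, the smallest width in any list. RRAGC, a GTPase that brings MTOR to the lysosome, and PRKAA2, the catalytic AMPK subunit of muscle, had the same peak numbers as RHEB. Each also held a coding region that the Jinhua lists alone contain, at 30 to 320 of ENSSSCT00000004044 in RRAGC and at 871 to 1060 of ENSSSCT00000004249 in PRKAA2. Such Jinhua-only regions were 6.60% of the 106 regions of other listed genes with complete positions, against 5.59% of all 9414 regions. DDIT4L and PRKAG1 were likewise called in every animal but Landrace 2, as were, elsewhere in the pathway, the adaptor SH2B3 and the translation target EIF4B. In all, this held for 8 of the 61 called genes (13.1%), against 5.31% of all identifiers. The list had 2 genes called in every animal but Jinhua 1, 2 in every animal but Jinhua 2 and 1 in every animal but Landrace 1, patterns held by 3.72%, 2.78% and 4.18% of all identifiers in that order. Landrace 2 also had the fewest called fibroblast markers and the shortest list, and their part in these missing calls was not tested. TSC2, the subunit of the TSC complex that inactivates RHEB, had 1 and 3 in Jinhua and 2 and 4 in Landrace. Its 3' UTR region at 5855 to 6044 of ENSSSCT00000008811 was listed for the Landrace animals alone, as were 3.38% of all 9414 regions.

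**Figure D4:**
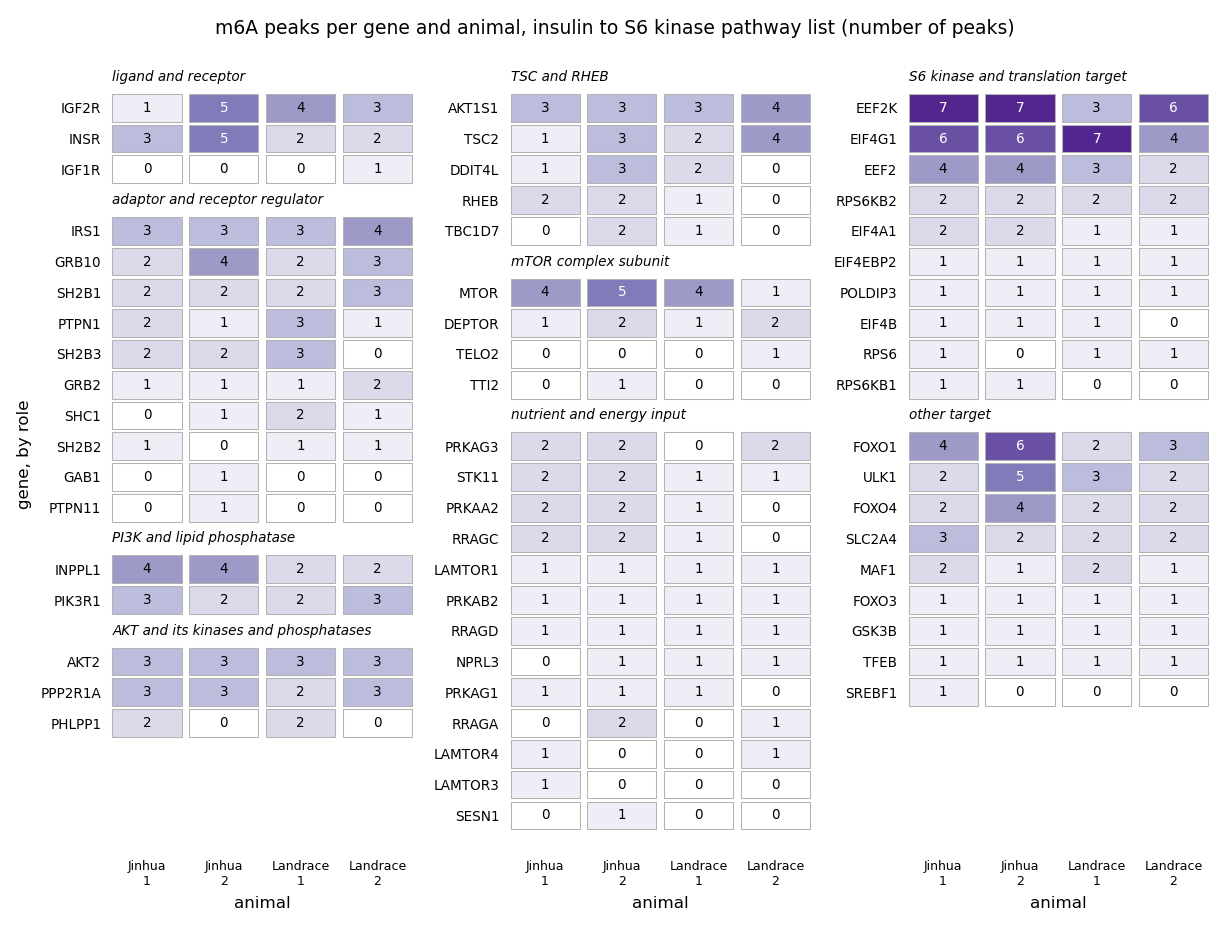
Number of m6A peaks per gene (rows, by role) and animal (columns, Jinhua left of Landrace) for listed genes called under their own symbol and reported here. RPS6KB1 has 1 peak in the Jinhua columns and 0 in the Landrace columns, and MTOR has 1 in Landrace 2.

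Downstream, 10 of 14 listed genes of S6 kinase and translation were called, 7 of them in all 4 animals (70%, against 43.8% of all identifiers). EIF4G1, the scaffold of translation initiation, had 6 and 6 peaks in Jinhua and 7 and 4 in Landrace. EEF2K, the kinase that inhibits elongation factor EEF2 and is itself a substrate of S6 kinase, had 7 and 7 in Jinhua and 3 and 6 in Landrace. EEF2 had 4 and 4 in Jinhua and 3 and 2 in Landrace, and EIF4A1, the helicase of initiation, 2 and 2 in Jinhua and 1 and 1 in Landrace. The breeds overlapped in EIF4G1 and not in EEF2K, EEF2 and EIF4A1, 3 of the 7 genes called in all 4 animals, where 7.96% of all such genes had both Jinhua numbers above both Landrace numbers. RPS6, the ribosomal protein that S6 kinase phosphorylates, had 1 and 0 in Jinhua and 1 and 1 in Landrace. EIF4EBP2, a translational repressor that MTOR inactivates, had 1 peak in each animal, in a 5' UTR region at bases 41 to 270 of ENSSSCT00000011239. Of 9 other called targets 8 were called in all 4 (88.9%, against 43.8% of all identifiers). They included FOXO1, with 4 and 6 in Jinhua and 2 and 3 in Landrace. The glucose transporter SLC2A4, also called in all 4, had 3 and 2 in Jinhua and 2 and 2 in Landrace. Over the 52 other listed genes with complete positions, 7 of 106 regions (6.60%) were called in Jinhua alone and 3 (2.83%) in Landrace alone, against 5.59% and 3.38% of all 9414 regions.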

How the data were processed

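Each deposited list belongs to 1 animal and, per the file headers, has per gene its identifier, symbol, transcript and peak number, then where each peak starts, where it ends and in which part it lies. Per the submitters' processing notes, TopHat2 2.0.14 was used, with Sscrofa10.2 and susScr3 as builds. How peaks were called and on which annotation is not given in the sources. The lists of Jinhua 2 and Landrace 1 give at most 4 positions and 3 annotated parts per gene. Backgrounds by position therefore use the 5422 identifiers with at most 4 peaks in every list, which leave out INSR and MTOR.

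Members were matched by symbol. A gene not listed was given 0 peaks. Peaks that overlapped or adjoined were merged into regions. Breed means were compared by exact permutation of the 4 animals, and p-values measure only the spread between these animals. The members and the pathway list were chosen with earlier results of these data known. The list was split by 9 roles, any called gene of it could be named, breed-specific ones and those with most peaks first, and likeness to a member was the sum of absolute differences in peak number, ties ordered by pathway membership and then covered bases. Symbols came from the lists, and 12 more identifiers of the pathway were named by the gene name table alone. Region merging and call patterns were tested on simulated data. Alternatives left out each animal, required wider peaks or 50% overlap, joined nearby peaks, scaled by list length, or changed the symbols or the call. Sequences under the peaks were not analysed here, and some genes that the naming rule allows are not reported here, although counts include them. Python 3.11.15, pandas 2.3.3, numpy 2.4.6 and matplotlib 3.10.9 were used.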

Additional observations from a re-analysis of the deposited data

How the results depend on the processing

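The differences in peak number of INSR, MTOR and RPS6KB1 kept their sign under every alternative run. Leaving out 1 animal gave 1 to 3 for INSR, 0.5 to 3.5 for MTOR and 1 for RPS6KB1, and -1 to 0 for IRS1, whose difference of -0.5 was 0 without Landrace 2. No p went below 0.333. With the replicate number as a block the differences were again 2, -0.5, 2 and 1 for INSR, IRS1, MTOR and RPS6KB1, with exact sign-flip p-values of 0.5, 1, 1 and 0.5. The labels give no shared litter or batch to the numbers, and the correlation of deviations over 2474 genes was -0.0472, so the numbers were not taken as pairs. Leaving out 1 animal moved the member regions called in Jinhua alone to between 2 and 5, from 2, with 5 when Jinhua 1 was left out, and those called in Landrace alone to between 0 and 1, from 0. In the pathway list the genes called in Jinhua alone numbered 3 to 10, with 6 without Jinhua 1, 4 without Jinhua 2 and 10 without Landrace 1, against 2 with all animals. Those called in Landrace alone numbered 0 to 2, with 2 without Jinhua 1, Jinhua 2 or Landrace 1. The 10 without Landrace 1 take in the 8 genes called in every animal but Landrace 2, 13.1% of the list against 5.31% of all identifiers. For the other counts with 1 animal left out, the shares over all identifiers are not given here. With 2 or more peaks as a call, 5 genes were called in Jinhua alone and 17 in all 4 animals. The shares over all identifiers under that stricter call are not given here either. Without the 4 members 1 gene was called in Jinhua alone. Fewer animals or members make such counts change by construction, and no cause beyond that was tested. The other 59 of 72 alternative values kept the sign of a difference or kept a count within 1.5 times, whatever their p. Among them the MTOR difference of 2 was 1 with peaks joined across 100 bases. Its exact permutation p of 0.667 was 0.333 per 10000 peaks and with peaks of 150 bases or more. The share of all genes whose breeds did not overlap under that width limit is not given here. Per 10000 peaks, MTOR stood at 6.22 in Jinhua 1 and at 6.18 in Landrace 1. Depth is unknown, so an absent call sets no limit on methylation.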

Other observations

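IGF1R, the receptor closest to INSR, was also split over 2 identifiers. ENSSSCG00000004812, which the lists call IGF1R, had 0 and 0 peaks in Jinhua and 0 and 1 in Landrace. ENSSSCG00000030560, named IGF1R by the gene name table alone, had 0 and 1 in Jinhua and 1 and 0 in Landrace. Among genes named by that table alone, RPTOR, the defining subunit of the first MTOR complex, had 2 and 1 in Jinhua and 0 and 1 in Landrace. MAPKAP1, a subunit of the second, had 1 peak in each animal. TBC1D4, an AKT substrate that controls glucose transporter traffic, had 2 in each animal, and LPIN1, a phosphatidate phosphatase that MTOR regulates, had 2 and 6 in Jinhua and 4 and 4 in Landrace. CAB39, a partner of STK11, held a 5' UTR region ending at base 330 of ENSSSCT00000017712 that the Landrace lists alone contain. That pattern was held by 3.38% of all 9414 regions.

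The shared INSR peak had identical start and end in the Landrace animals. Over 2123 regions with 1 peak in each animal, the Jinhua peaks were identical in 113 and the Landrace peaks in 203.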
